A study of Arabidopsis thaliana with 4 samples.

Results

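These results concern 88 probe sets of the Affymetrix ATH1 array that were at least 2-fold brighter at 96 h than at 48 h in both control and potassium-starved Arabidopsis thaliana roots. A probe set is a group of short probes that together measure 1 transcript or a few near-identical ones. The rule took probe sets other than the array's own controls. Each had to be as bright as the 40th percentile or brighter on 2 or more of the 4 arrays, and to differ by at least 1 in log2(value + 16) between 96 h and 48 h in each solution. All folds given here are ratios of value + 16, so they are smaller than the ratios of the printed signals. Of 22746 probe sets, 13998 passed that filter on low values and 104 met the thresholds, which is 0.743% of those tested. In control roots alone 1.21% of tested probe sets were at least 2-fold higher at 96 h, and in starved roots alone 1.56%. From the 104, 16 were left out as belonging to a fixed set of 17 genes and probe sets, mostly known hypoxia genes. The remaining 88 comprised 35 with exactly 1 annotated gene, 2 with several genes and 51 with no gene listed in the annotation used.

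The plants were of accession Col-0, and roots were mixed from plants 4 to 5 weeks old grown in hydroponics. They had been moved either to fresh control solution, with 0.5 mM KH2PO4 and 1.25 mM KNO3, or to solution in which 0.5 mM H3PO4 and 1.25 mM HNO3 stood in for these salts. Roots were taken 48 h or 96 h later, so that the groups were control at 48 h, starved at 48 h, control at 96 h and starved at 96 h, with 1 array each. All groups shared calcium nitrate, magnesium sulfate, iron chelate and micronutrients. With 1 harvest at each time, hours after transfer, plant age and harvest conditions cannot be told apart. No array had a replicate, so single differences carry no test. How precise each value is depends on this number of arrays.

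Plant cells short of oxygen turn from respiration to glycolysis and fermentation. ERF transcription factors of the oxygen-sensing group, which the N-degron pathway destroys while oxygen is present, then switch on a core set of genes. Below, the 35 genes are ordered by what each is known to encode, an order made with the members in view and not tested.

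The values that chose these probe sets are given as a description and are not tested. The log2 difference between 96 h and 48 h ranged from 1.00 to 4.63 in control roots, with a median of 1.44. In starved roots it ranged from 1.01 to 5.34, with a median of 1.65. Over all 13998 tested probe sets the medians were -0.01 and 0.00. Most members stood near the lower end of the range: 13 were at least 4-fold higher in both solutions and 6 at least 8-fold, and none of the 13 had a single annotated gene.

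Probe set 267470_at lay just inside the threshold, with log2 differences of 1.00 in control and 1.08 in starved roots. Its neighbours on the inner side were 260406_at (1.01 and 2.61), the hydrolase-family gene AT3G12150 (1.07 and 1.01), 256994_s_at (1.01 and 1.14) and 266364_at (1.02 and 1.31). Just outside lay 258277_at (1.09 and 0.997), AT3G56290 (0.995 and 1.05), AT5G14730 (1.11 and 0.992), 247655_at (1.19 and 0.989) and 250099_at (0.98 and 1.22). The border therefore runs through probe sets with almost the same values.

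At 48 h, 57 of the 88 members reached the 40th percentile on both arrays, 7 on 1 of them and 24 on neither. The 40th percentile lay between 29.4 and 30.4 on the 4 arrays. Those 24 passed the filter through the 96 h arrays alone, so they had to differ, and their folds depend on the added 16. The signals of the 88 had medians of 46.0 and 57.6 in control and starved roots at 48 h, and of 195 and 253 at 96 h.

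**Figure D1:**
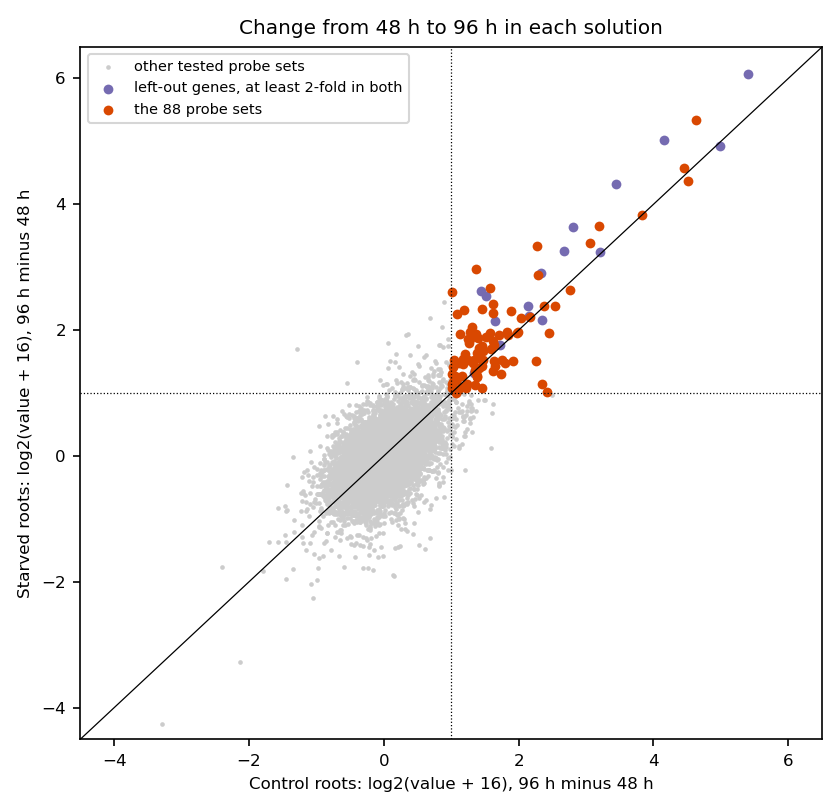
Difference between 96 h and 48 h in log2(value + 16) for each tested probe set, control roots on the horizontal axis and starved roots on the vertical axis. The 88 probe sets (orange) lie beyond both dotted lines at 1 by construction, and the left-out genes (purple) reach the highest values.

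Of 46 genes on a list of core hypoxia genes, 24 had a named probe set, and 5 of these were members. Membership of the other listed genes could not be judged, since probe sets without a single annotated gene could not be matched to the list. AT4G27450, which encodes an aluminium-induced-type protein with YGL and LRDR motifs, was the brightest of the 35 genes by mean signal. It measured 642 (control) and 988 (starved) after 48 h versus 2261 (control) and 2793 (starved) after 96 h. Both 96 h arrays stood above both 48 h arrays, by 3.46-fold in control and 2.8-fold in starved roots.

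AT5G44730, a hydrolase of the haloacid dehalogenase family, measured 65.2 (control) and 73.0 (starved) after 48 h versus 208 (control) and 434 (starved) after 96 h. The gene for the kelch-repeat protein AT3G27220 measured 48.3 (control) and 56.9 (starved) after 48 h versus 181 (control) and 336 (starved) after 96 h. In both genes the starved 96 h array was the highest of the 4 and the 48 h arrays lay close together. AT3G23170 measured 19.1 (control) and 31.5 (starved) after 48 h versus 74.7 (control) and 167 (starved) after 96 h. Its order over the arrays was the same, with the starved above the control array at each time.

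The fifth, AT2G15880, encodes a leucine-rich repeat extensin, a wall protein of a kind known from pollen. It measured 22.3 (control) and 24.9 (starved) after 48 h versus 178 (control) and 74.5 (starved) after 96 h. Like AT4G27450, and unlike the other listed members, it changed more in control (5.06-fold) than in starved roots (2.21-fold). Of the 5 it was the one with a lower starved than control signal at 96 h. Both of its 48 h signals were below the 40th percentile.

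Of the 46 listed hypoxia genes, 24 were tested, and limma called 20 of the 24 higher at 96 h and 0 lower (adjusted p below 0.05 over all 13998). Over all tested probe sets limma called 4.11% higher and 3.24% lower at 96 h. The 24 included the 5 members and 13 of the left-out genes, all chosen on this difference or named with it known, so the count is no separate support. The other 6 are what remained once these were taken out, so the same difference defines them too, and they are described without a test. Among them AT5G42200 stood at a log2 difference of 0.63 (control) and 1.12 (starved), AT1G26270 at 0.78 and 0.87, and AT3G10020 at 0.13 and -1.05. The median log2 difference of the 24 between 96 h and 48 h was 1.70 in control and 2.19 in starved roots.

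**Figure D2:**
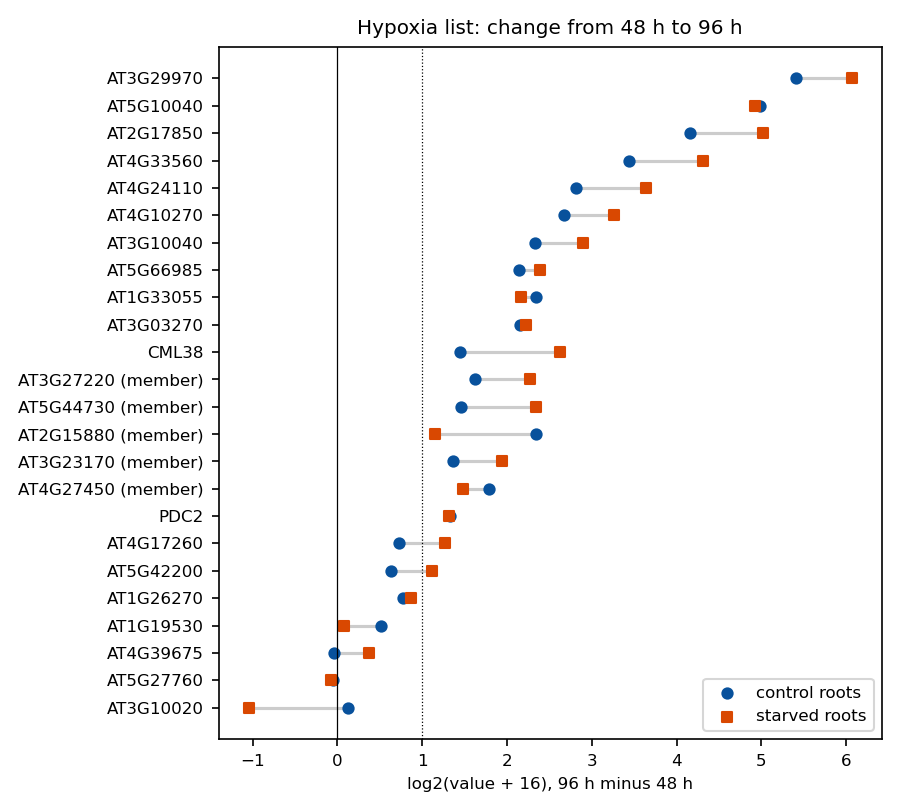
Difference between 96 h and 48 h in log2(value + 16) for the 24 tested genes of the hypoxia list, control roots as circles and starved roots as squares, 1 array per group and time. The 5 members lie between 1.37 and 2.34 in control roots, and AT3G10020, at 0.13 and -1.05, lies lowest in starved roots.

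Another 5 members encode proteins of families known from stress tolerance. AT3G11930 and AT2G47710 belong to the universal stress protein family. AT3G11930 measured 480 (control) and 476 (starved) after 48 h versus 1505 (control) and 1735 (starved) after 96 h. AT2G47710 measured 136 (control) and 201 (starved) after 48 h versus 560.4 (control) and 603 (starved) after 96 h. For both, the 96 h arrays differed less between solutions than between times.

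AILP1 (AT5G19140) belongs to the same family as AT4G27450. It measured 236 (control) and 289 (starved) after 48 h versus 564 (control) and 880.1 (starved) after 96 h. TIL (AT5G58070), a lipocalin induced by temperature that protects membranes, measured 685 (control) and 721 (starved) after 48 h versus 1595 (control) and 2258 (starved) after 96 h. Starved exceeded control roots on all of these pairs, and by more at 96 h. AT5G51440, of the small heat shock protein family, was dim and measured 10.3 (control) and 12.6 (starved) after 48 h versus 43.6 (control) and 67.3 (starved) after 96 h. Its 48 h signals lay below the 40th percentile.

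Among wall-related genes, AT2G43150 and AT3G28550 encode proline-rich proteins of the extensin family, whose repeated sequence may let a probe set pick up relatives. AT2G43150 measured 55.9 (control) and 48.9 (starved) after 48 h versus 199 (control) and 195 (starved) after 96 h, so the solutions hardly parted. AT3G28550 measured 179.7 (control) and 140.1 (starved) after 48 h versus 466 (control) and 630.1 (starved) after 96 h, with the starved array the lowest at 48 h and the highest at 96 h. AT4G18280, a glycine-rich wall protein gene, went from 45.3 to 122 in control and from 65.9 to 210.3 in starved roots. CCR2 (AT1G80820), a cinnamoyl-CoA reductase of the phenylpropanoid pathway, went from 24.3 to 86.5 and from 37.6 to 101.

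For transport, 3 members were found, all higher in starved than in control roots at both times. The same held for 56 of all 88 members (63.6%), against 23.9% of all tested probe sets. AT4G34950, of the major facilitator superfamily, measured 77.9 (control) and 95.2 (starved) after 48 h versus 263 (control) and 416 (starved) after 96 h. AT5G26200, of the mitochondrial carrier family, measured 30.0 (control) and 52.2 (starved) after 48 h versus 111 (control) and 212 (starved) after 96 h. AT2G36950, of the heavy-metal-associated domain family, measured 153 (control) and 173 (starved) after 48 h versus 383 (control) and 675 (starved) after 96 h. The starved 96 h array was the highest of the 4 in each of these genes.

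Signalling and regulatory genes numbered 5, and each was also higher in starved roots at both times, as were 56 of all 88 members. AT3G48450, of the RIN4 family of immune regulators, had the largest smaller-of-both change of the 35 genes, at 36.4 (control) and 53.0 (starved) after 48 h versus 192 (control) and 255 (starved) after 96 h. The changes were nearly equal, 3.97-fold and 3.92-fold. AT1G07870, a protein kinase gene, went from 87.9 to 262 in control and from 103 to 334 in starved roots. AT4G17670, of the FCS-like zinc finger family, went from 123 to 289 and from 132 to 549, so that its change was 2.19-fold in control and 3.82-fold in starved roots. The Dof transcription factor gene AT1G69570 was dim at 48 h (16.3 and 20.2) and reached 50.5 and 88.5. AT1G13340, an IST1-like gene of the Vps4 regulator family, went from 46.6 to 129.6 and from 69.5 to 164.

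Enzyme genes were the alpha/beta-hydrolase family members AT4G31020 and AT3G12150 and the cineole synthase TPS-CIN (AT3G25830), which makes a volatile monoterpene in roots. AT4G31020 measured 29.5 (control) and 28.1 (starved) after 48 h versus 124 (control) and 220.0 (starved) after 96 h. Both of its 48 h signals lay just below the 40th percentile. AT3G12150 measured 41.3 (control) and 45.4 (starved) after 48 h versus 105 (control) and 107 (starved) after 96 h, and the solutions lay within 0.10 of each other on the log2 scale. TPS-CIN measured 25.4 (control) and 58.3 (starved) after 48 h versus 91.8 (control) and 162 (starved) after 96 h. In TPS-CIN the starved array was above the control array at both times.

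Genes for organelle gene expression were rps2, the plastid-encoded ribosomal protein S2, and AT5G15700, a phage-type RNA polymerase of mitochondria and plastids. The rps2 probe set measured 74.5 (control) and 72.9 (starved) after 48 h versus 210 (control) and 232 (starved) after 96 h. AT5G15700 was the dimmest of the 35 genes by mean signal, at 6.92 (control) and 6.90 (starved) after 48 h versus 30.7 (control) and 36.0 (starved) after 96 h. Neither separated the solutions by more than 0.16 on the log2 scale at either time.

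The other 8 genes are given without a role. AT2G41730 measured 14.3 (control) and 13.9 (starved) after 48 h versus 74.5 (control) and 174 (starved) after 96 h. Its probe set is of a type that may cross-hybridise with other transcripts. AT1G16850 measured 6.39 (control) and 13.4 (starved) after 48 h versus 43.0 (control) and 92.5 (starved) after 96 h. Both were below the 40th percentile at 48 h, so their changes of 2.63-fold to 6.35-fold depend on the added 16. AT3G27770 was bright and measured 343 (control) and 368 (starved) after 48 h versus 940.0 (control) and 1243 (starved) after 96 h. AT3G60520 measured 64 (control) and 75.1 (starved) after 48 h versus 206 (control) and 273 (starved) after 96 h. In AT3G59910, AT1G03610, AT1G10990 and AT3G03020 the log2 differences between the times were 1.16 to 1.36 in control and 1.27 to 1.52 in starved roots.

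**Figure D3:**
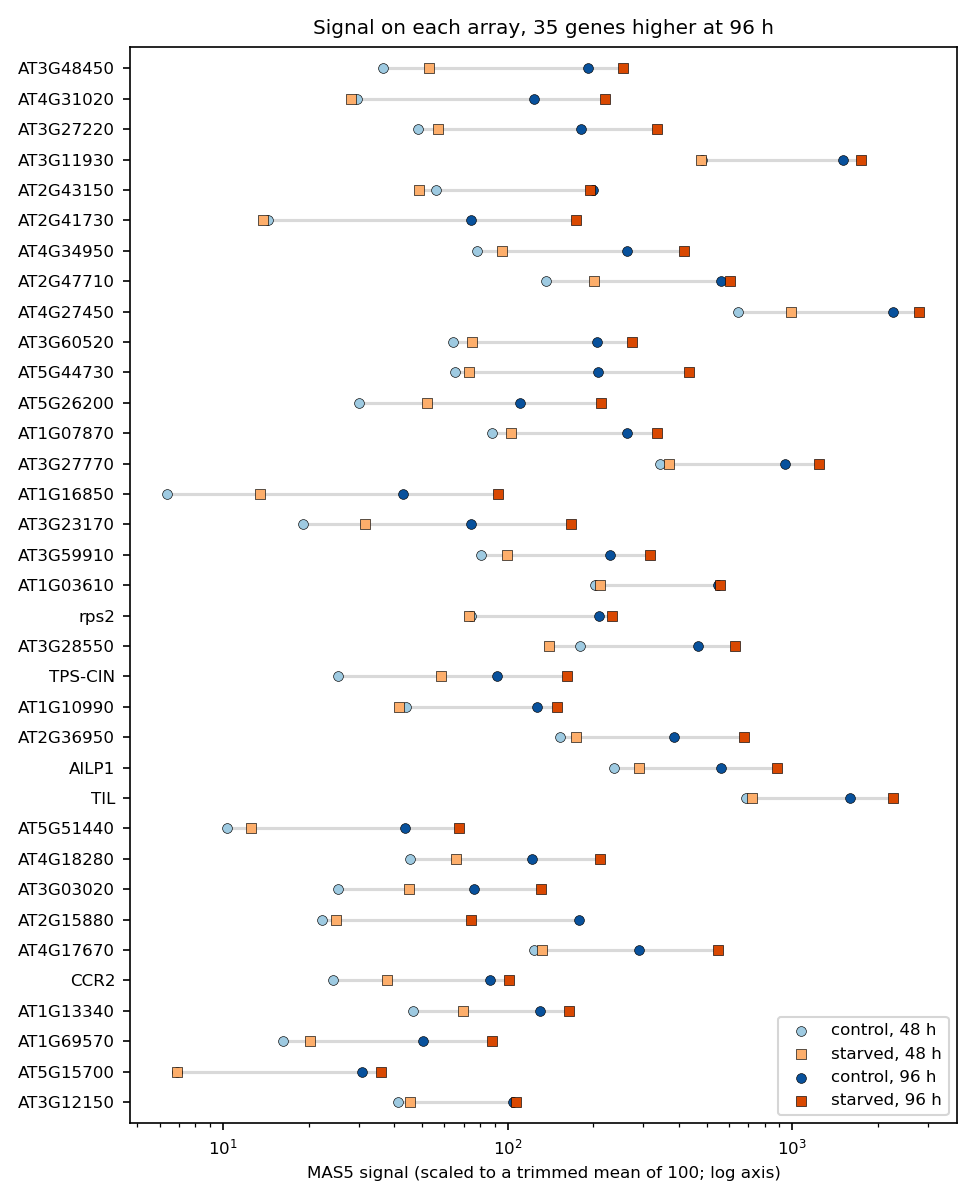
Signal of the 35 genes on each of the 4 arrays on a log axis, ordered by the smaller of the changes in the solutions. The 96 h arrays (dark) lie right of the 48 h arrays (pale) in every gene by the rule, and the starved 96 h array is the highest in most, with AT2G15880 (178 in control and 74.5 in starved roots) the widest exception.

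With the left-out genes set aside by name, the members with no single gene held the widest changes. Probe set 266965_at measured 2.16 (control) and 10.8 (starved) after 48 h versus 432 (control) and 1072 (starved) after 96 h. Probe set 260869_at measured 53.3 (control) and 68.3 (starved) after 48 h versus 1500 (control) and 2005 (starved) after 96 h. Probe set 267024_s_at measured 25.3 (control) and 48.5 (starved) after 48 h versus 922 (control) and 1325 (starved) after 96 h. The first of these was near the floor at 48 h, whereas 260869_at was above the 40th percentile on all arrays and was 21.9-fold and 24-fold higher at 96 h. Probe set 252746_at measured 145 (control) and 219 (starved) after 48 h versus 2284 (control) and 3343 (starved) after 96 h. The brightest member was 264953_at, at 556 (control) and 965 (starved) after 48 h versus 3308 (control) and 5112 (starved) after 96 h. In all 5 the starved array was above the control array at each time, as in 56 of all 88 members.

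The difference between starved and control roots was not itself used by the rule, though the rule used the signals it is taken from. It was tested with the arrays of the 2 times standing in for replicates of a solution. limma was fitted to all 4 arrays with solution and time as terms, and p-values were adjusted by Benjamini-Hochberg over 13998 probe sets. It called 2 of the 88 higher in starved roots, against 0.121% of all tested probe sets. These were 266965_at, with a mean log2 difference of 0.92 ± 0.17 (SE, 2 arrays per solution, limma adjusted p = 0.0393), and TPS-CIN, with 0.78 ± 0.15 (limma adjusted p = 0.0481). Both 48 h signals of 266965_at (2.16 and 10.8) lay below the 40th percentile, so it passed the filter through its 96 h arrays alone, and its mean includes a difference of 0.56 between values near the floor. None was called lower, against 0.0714% of all. At an unadjusted p below 0.05 there were 39 members higher and 2 lower, beside 558 and 477 of all tested probe sets. The residual has 1 degree of freedom, so these errors rest mostly on the spread shared across probe sets. That spread mixes noise of single arrays with any change of the starvation difference between the times. The errors and p-values therefore do not measure variation between harvests. Both calls were lost under quantile or cyclic loess normalization, where the limma adjusted p was 0.0877 and 0.324 for 266965_at and 0.0703 and 0.283 for TPS-CIN. TPS-CIN also lost its call with a pseudocount of 1 (limma adjusted p = 0.174). Both were lost with a pseudocount of 64, with other filters, without the time term and with any 1 array left out. Over all alternatives the limma adjusted p started at 0.0302 for 266965_at and at 0.0371 for TPS-CIN, and neared 1 for both. A tandem duplicate of the gene, almost identical in sequence, may add to the TPS-CIN signal.

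Counted without a test, starved roots exceeded control roots in 61 of the 88 members (69.3%) at 48 h, against 47.3% of all tested probe sets. At 96 h they did so in 77 members (87.5%), against 49.9%. At both times they did so in 56 members, against 23.9%, and they were lower at both times in 6, against 26.7%. The median log2 difference of the members was 0.18 at 48 h and 0.42 at 96 h, beside -0.01 and 0.00 over all tested probe sets. The 487 other probe sets that limma called higher at 96 h had medians of 0.07 and 0.11. The 16 left-out probe sets among them had medians of 0.34 and 0.74, and the 471 without these 0.07 and 0.10. The 454 called lower at 96 h had medians of -0.01 and -0.14. Among the 3500 tested probe sets with the highest mean level the medians at 48 h and 96 h were 0.01 and 0.02 over all, and 0.25 and 0.48 over the 31 members there. Among the 3500 with the lowest mean level the median at 48 h was -0.02 both over all and over the 19 members there, and at 96 h it was 0.03 and 0.31. All members were measured on the same 4 arrays, so they are not independent counts of a shift.

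The array's hybridisation controls, bacterial and phage transcripts added to the samples, moved the same way. All 18 were higher on the starved than on the control array at both times, with a median log2 difference of 0.24 after 48 h and 0.88 after 96 h. The range at 96 h was 0.64 to 1.05. The 16 control probe sets for actin, GAPDH and ubiquitin had medians of 0.02 at 48 h and 0.42 at 96 h, and all 16 were higher in starved roots at 96 h. Their part in the difference between starved and control roots was not tested. From 48 h to 96 h the 18 hybridisation controls were lower in control roots, by a log2 difference of -0.83 to -0.07, and between -0.22 and 0.16 in starved roots. The members were higher at 96 h in both solutions because the rule required it, so they offer no comparison with these controls over time.

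**Figure D4:**
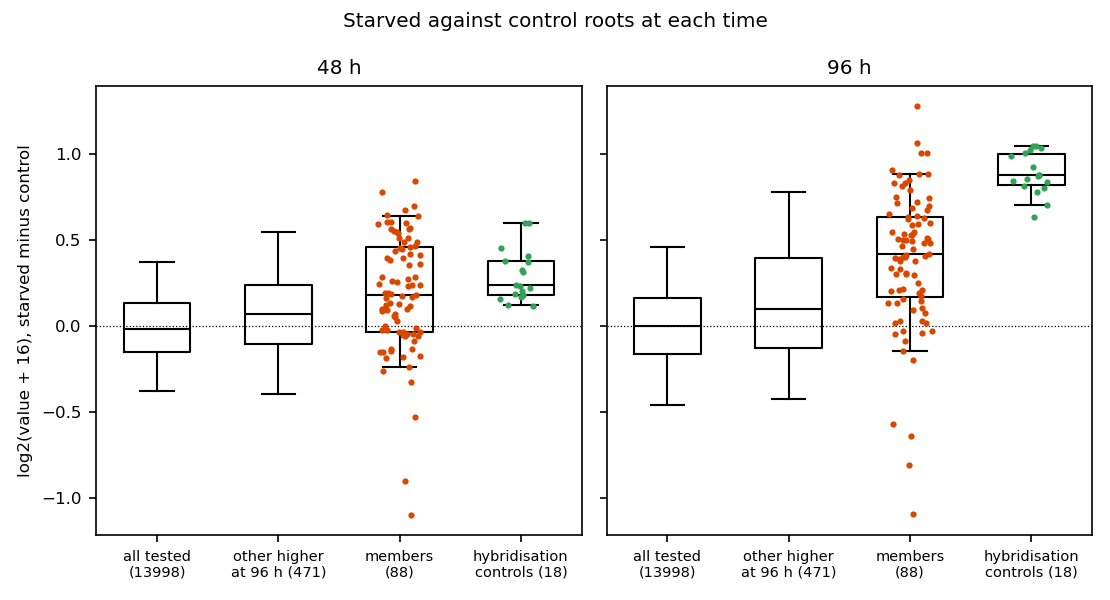
Difference between starved and control roots in log2(value + 16) at 48 h (left) and 96 h (right). Boxes show quartiles and medians with whiskers from the 5th to the 95th percentile, and points show the 88 members (orange) and the 18 hybridisation controls (green). At 96 h the members' median is 0.42 and that of the controls 0.88.

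At least 2-fold higher values in starved roots at 96 h were seen in 4 members, against 0.357% of all tested probe sets. They were 266965_at, AT2G41730, AT3G23170 and AT5G44730, with log2 differences of 1.28, 1.07, 1.01 and 1.01. AT2G15880 was the 1 member at least 2-fold lower, at -1.10, against 0.493%. Of these, 266965_at, AT2G41730 and AT2G15880 passed the filter through their 96 h arrays alone. The 96 h signals also entered the rule, so these counts are a description only. At 48 h no member was at least 2-fold higher (0.0429% of all) and 1, 260406_at, was lower (0.1%). Both 48 h signals of 260406_at lay below the 40th percentile. At a difference of at least 1.5-fold, 10 members were higher in starved roots at 48 h and 2 lower, against 1.1% and 1.23% of all tested probe sets. At 96 h the counts were 28 and 3, against 2.46% and 2.64%. The widest gene at 48 h was TPS-CIN, at 0.84, followed by AT4G27450 (0.61), AT5G26200 (0.57) and AT3G03020 (0.57). The control 48 h signals of TPS-CIN and AT3G03020 lay below the 40th percentile. On the lower side AT3G28550 stood at -0.33. Of the 35 genes, 27 were higher in starved roots at 48 h and 33 at 96 h. The exceptions at 96 h were AT2G43150 (-0.03) and AT2G15880.

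The change from 48 h to 96 h was larger in starved than in control roots in 58 of the 88 members (65.9%), against 51.7% of all tested probe sets. The widest gaps among the 35 genes were those of AT2G41730 (2.98-fold in control and 6.35-fold in starved roots), AT5G44730 (2.76-fold and 5.06-fold), AT4G17670 (2.19-fold and 3.82-fold), AT4G31020 (3.08-fold and 5.35-fold) and, in the opposite direction, AT2G15880. The rule used both changes, so this is a description only.

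Other listed genes gave few values. Of 18 lists with 234 genes, 43 genes had a named probe set and 39 were tested. Among these the hypoxia list was the only 1 with members. Members without a single annotated gene could not be matched to any list, so a list without members may reflect the annotation. limma called 2 of 4 glycolysis and fermentation genes higher at 96 h, both of them left-out genes that the hypoxia list also holds. It called 1 of 3 touch and WRKY genes higher, the left-out CML38, and none of 3 sugar starvation genes or 2 ethylene genes. The single tested oxidative response gene, AT2G21640, rose by a log2 difference of 0.41 (control) and 0.99 (starved) (limma adjusted p = 0.035). The clock gene GI stood at 0.33 and 0.30 (limma adjusted p = 0.239), the only 1 of 18 clock genes tested. For starvation limma called 1 listed gene, WRKY53, which was lower in starved roots. The other 9 lists had no tested gene.

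The labelled tissue was checked with markers. Of 12 root markers 3 were tested, and the root beta-glucosidase gene PYK10 measured 2309 to 2987 on the 4 arrays. The root hair expansin gene EXPA7 measured 132 (control) and 201 (starved) after 48 h versus 84.5 (control) and 109 (starved) after 96 h. AT1G30870, a root hair peroxidase gene, measured 486 (control) and 674 (starved) after 48 h versus 337 (control) and 529 (starved) after 96 h. EXPA7 fell from 48 h to 96 h (limma adjusted p = 0.0106). Of 11 green tissue markers 1 was tested, the Rubisco activase gene RCA, which measured 134 (control) and 128 (starved) after 48 h versus 237 (control) and 180.2 (starved) after 96 h and rose (limma adjusted p = 0.0227). None of these markers was at 0. In whole roots, a change in the share of a cell type and a change in RNA per cell cannot be told apart, and the part of these markers in the members' values was not tested. The 25S ribosomal RNA control stood apart on the starved 48 h array, with 795 against 58.7 to 73.1 on the others.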

How the data were processed

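Root RNA of 4 samples, 1 per group, was hybridised to 1-colour ATH1 arrays. The deposited values are signal intensity on a linear scale. The submitters' processing notes name MAS5 as the authors' software, with its version not given in the sources used here. In the analysis, 64 control probe sets were kept apart and arrays were brought to a common 2% trimmed mean of 100. Values then entered as log2(value + 16), which understates changes of dim probe sets. Of 22746 probe sets, 13513 had 1 gene in the platform annotation, 503 several and 8730 none; symbols came from RefSeq (TAIR10.1). No coordinates or sequences are given. limma 3.58.1 in R 4.3.3 (lmFit, eBayes with trend, solution and time as terms) was tried on simulated data. Of 200 planted 2-fold effects it called 200, with 21 false calls. At 4-fold these counts were 200 and 12, and with no effect planted it made 0 calls. The simulated noise was drawn independently for each probe set and array, so a shift shared by a whole array was not tried. Nothing in the labels gives separate cultures. Members, gene lists and tests were chosen with earlier results of these data known. The rule for naming, as applied, gave array values for the 15 single-gene members with the largest smaller change. It also gave them for members called or among the 5 widest for starvation, those on a list and the 5 brightest. For 5 on each side of the threshold it gave differences, and it allowed at most 5 members lacking a single gene. Values of further single-gene members go beyond that rule. Alternatives were the pseudocount, normalization, filter, model terms and left-out arrays.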

Additional observations from a re-analysis of the deposited data

Results flagged for a closer look

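In 4 members the difference between starved and control roots pointed in opposite directions at the 2 times, by at least 0.5 on the log2 scale at each. Each direction rests on 1 array per group, the difference between the times was not tested, and these probe sets, none with a single gene, were chosen after their values were seen. Probe set 259553_x_at stood at -0.90 at 48 h and 0.70 at 96 h. For 266719_at the values were -0.53 and 0.60, and for 260406_at -1.10 and 0.50. Probe set 250351_at ran the other way, with 0.59 and -0.81. The starved 48 h signals of 266719_at (1.27) and 260406_at (2.01) and the control 48 h signal of 250351_at (3.17) were near the floor, whereas 259553_x_at measured 462 (control) and 240 (starved) after 48 h versus 1215 (control) and 1984 (starved) after 96 h.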

How the results depend on the processing

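The number of members was 143 with a pseudocount of 1, 44 with 64, 153 from the control arrays alone, 201 from the starved arrays alone and 13 at a 4-fold threshold; under the other 5 settings it was 75 to 90. limma called 1 of the 88 members for starvation with a pseudocount of 1 (38 at an unadjusted p below 0.05) and 3 with equal medians. It called 0 with a pseudocount of 64, after quantile or cyclic loess normalization, with the filter at the 60th percentile, without a filter and without the time term. The counts at an unadjusted p below 0.05 were then 42, 38, 39, 36 of 75, 35 and 0, in that order. For unadjusted p the share over all tested probe sets was taken in the main setting only. The counts under the alternatives therefore have no comparison. Leaving out any array, which also drops the time term, gave 0 to 0 calls (2 to 21 members at an unadjusted p below 0.05), and the mean difference of 266965_at then ran from -1.75 to 3.59 (-1.39 without control 48 h and -1.75 without starved 96 h), since time is no longer separated from solution. That of TPS-CIN ran from 0.09 without control 48 h to 1.47 without control 96 h, and was 0.15 without starved 96 h. Members at least 2-fold apart at 48 h numbered 8 with a pseudocount of 1 and 0 with 64 or the stricter filter, and at 96 h 1 with 64. After quantile normalization 61 members were higher in starved roots at 48 h and 74 at 96 h, against 48.6% and 50.2% of all tested probe sets. With equal medians the members numbered 63 and 77, against 51.1% and 53.4%. After cyclic loess they numbered 63 and 76, against 50.2% and 50.8%. A pseudocount or the removal of the filter cannot change these signs. Among the 57 members above the 40th percentile on all arrays, an alternative chosen after seeing the data, they numbered 43 and 53. The share over all probe sets at that level was not taken, so these counts have no comparison. No paired analysis was possible because each group had 1 array, all with replicate number 1, so no replicate block could be added. The time term already sets starved against control roots within each time. The alternatives on promoter motifs were not run, as no promoter sequences were used here. With 1 array per group, dim probe sets near the floor limit the folds.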
